A study of Homo sapiens with 6 samples.

Results

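NR3C1, the gene of the glucocorticoid receptor, and 7 genes grouped as receptor targets were followed in 3 human lung cancer cell lines. The 7 were SGK1, TSC22D3, FKBP5, KLF9, ZFP36, CRISPLD2 and ERRFI1-DT, and the lines were treated with the diterpenoid AL-X. Whether ERRFI1-DT is itself a target was not tested. These 8 genes were taken by name from the 60671 gene rows of the count table, and all 8 were found there. The set was put together with results of these data in view, and was chosen by the difference of counts between AL-X and DMSO, SGK1 being higher with AL-X in A549 and H1975 but not in HCC827. The differences of its members between AL-X and DMSO are therefore given as a description, without a test.

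The cells received AL-X, chemically 9α,11α-dihydroxy-kaurenoic acid, at 10 µg/mL for 48 h. DMSO, its solvent, was the control, also for 48 h. Each of A549, HCC827 and H1975 gave 1 library per treatment, 6 in all, and every sample carries the genotype label WT. All 3 are established lung adenocarcinoma lines, and HCC827 and H1975 are known to carry mutant EGFR. No glucocorticoid is named in the labels, and the steroid content of the medium is not given there.

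The glucocorticoid receptor is a transcription factor of the nuclear receptor family. Without hormone it is held in the cytoplasm by HSP90 and its co-chaperones. With hormone it enters the nucleus, binds palindromic response elements and raises the transcription of its targets, while it restrains inflammatory genes driven by NF-kB and AP-1. In airway epithelium and in A549 cells its induced genes are a standard readout of glucocorticoid action. Several of them answer to other signals too: SGK1 is named for its induction by serum as well as by glucocorticoid, and ZFP36 is also an immediate-early gene.

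The stretches upstream of 3 members are shown because SGK1 and ZFP36 had the largest AL-X differences of the set, while TSC22D3 is the classical direct receptor target and was lower in every line. Another stretch lies between the start of ERRFI1 and that of ERRFI1-DT, which point away from each other. All are RefSeq sequence on GRCh38.p14, 5′ to 3′ on the strand of the gene, and end at the base before a RefSeq start. RefSeq starts can differ from the GENCODE positions given below, as for ZFP36 and ERRFI1-DT. They cover chr6:134174867-134175116 (minus strand) for SGK1, chr19:39406597-39406846 (plus strand) for ZFP36, chrX:107717063-107717312 (minus strand) for TSC22D3 and chr1:8026309-8026492 (plus strand) for ERRFI1-DT. Capitals mark the letters TATAA on the gene's strand, and TGACG, the core of a cAMP response element, on either strand.
SGK1: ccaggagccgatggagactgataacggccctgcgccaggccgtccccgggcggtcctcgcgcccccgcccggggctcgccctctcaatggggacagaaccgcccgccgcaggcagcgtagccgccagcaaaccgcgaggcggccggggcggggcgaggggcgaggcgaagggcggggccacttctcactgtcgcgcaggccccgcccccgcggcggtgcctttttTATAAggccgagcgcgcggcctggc
ZFP36: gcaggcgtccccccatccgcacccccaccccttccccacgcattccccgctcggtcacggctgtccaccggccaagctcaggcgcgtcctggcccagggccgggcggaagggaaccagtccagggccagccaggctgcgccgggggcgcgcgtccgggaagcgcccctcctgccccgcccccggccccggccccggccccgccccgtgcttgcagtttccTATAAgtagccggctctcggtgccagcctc
TSC22D3: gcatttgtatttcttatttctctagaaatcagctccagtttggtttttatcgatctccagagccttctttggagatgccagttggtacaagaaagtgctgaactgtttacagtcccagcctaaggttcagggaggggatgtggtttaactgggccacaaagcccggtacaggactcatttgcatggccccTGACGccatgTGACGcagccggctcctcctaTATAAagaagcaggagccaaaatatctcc
ERRFI1-DT: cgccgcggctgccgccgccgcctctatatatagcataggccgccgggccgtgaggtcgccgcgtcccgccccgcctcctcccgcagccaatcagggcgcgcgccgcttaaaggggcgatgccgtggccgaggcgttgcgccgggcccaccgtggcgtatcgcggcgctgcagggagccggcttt

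SGK1 had 3 RefSeq start windows and TSC22D3 4, and 1 start of each was printed, at 134174866 and 107717062. Both lie within the gene spans given below, not at their 5′ ends. TATAA stood 25 bases upstream of this SGK1 start, 30 upstream of the ZFP36 start and 29 upstream of this TSC22D3 start, counted to its first base. Another SGK1 start, at 134177861, had TATAA 15 bases upstream. The TSC22D3 stretch also held TGACG at 60 and at 50 bases upstream. The stretch between ERRFI1 and ERRFI1-DT held neither. The receptor's palindrome, searched as GNACA and TGTNC with 3 bases between them on both strands, was in 0 of the 20 RefSeq windows of the 8 members, each from 250 bases before to 50 after a start. It was in 0.390% of all 35116 windows. Its hexamer AGAACA, on both strands, was in 2 of the 20, 1 window each of FKBP5 and SGK1, against 14.8% of all windows. TATAA was in 6 of the 20 windows, of 5 members, against 14.8%, TGACG on both strands in 6, of NR3C1 and TSC22D3, against 24.6%, and the AP-1 letters TGANTCA in 1, of NR3C1, against 7.71%. The CArG box, bound by SRF, was searched on both strands and was in 0, against 1.29%. These letters were searched in these windows alone, and receptor sites further away were not looked at.

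Library totals ranged from 98139178 to 126840915 counts. The share of counts from mitochondrial genes was 6.41% to 6.87% with DMSO and 0.0201% to 0.656% with AL-X. Levels are counts per 1000000 (CPM) after TMM scaling, whose factors were 1.12 with DMSO and 0.557 with AL-X in A549, 1.17 and 1.27 in HCC827 and 1.20 and 0.903 in H1975. With library totals as the only scaling the median fold of all genes shifted, on the log2 scale, by -1.0 for A549, 0.13 for HCC827 and -0.41 for H1975. This shift applies to every single fold given below for the genes outside the set, so folds near a limit cross it. In A549 those of PER1 (0.96), CEBPD (0.72) and TSC22D4 (0.75) were then under 2-fold, among others. Folds nearer to 0 than the shift changed sign: those of NFKBIA, NDRG1, CXCL5 and FKBP10 in A549, of ANGPTL4, FKBP11, ZFP36L1 and ZFP36L2 in H1975, and of FKBP4 in HCC827. Of 9 lung epithelial markers, 6 reached 1 CPM in both A549 libraries, 9 in both of HCC827 and 8 in both of H1975. NKX2-1, the lung lineage factor, had 10 counts in A549 with DMSO and 0 with AL-X. It went from 36483 to 5064 counts in HCC827 and from 17681 to 1905 in H1975. Of 12 markers of immune, endothelial and stromal cells, 3 or 4 reached 1 CPM in each library, and the leukocyte gene PTPRC had 0 counts in all 6. Their summed level was 23.9 to 103 CPM in 5 libraries and 382 CPM in HCC827 with AL-X, where CD68, a lysosomal protein gene that epithelial cells also express, went from 10274 to 46355 counts. The part of these shifts in the results below was not tested.

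The set did not move together. Within a line, a gene counted as differing when its libraries were 2-fold apart and the higher of them reached 5 CPM. All 8 members passed the filter on low counts over the 6 libraries, and 7 of them, all but ERRFI1-DT, reached 5 CPM in each line. In A549 3 were higher (SGK1, ZFP36, CRISPLD2) and 3 lower (TSC22D3, FKBP5, KLF9), where 30.0% of all genes considered were higher and 31.4% lower. In H1975 3 were higher (SGK1, ZFP36, CRISPLD2) and 2 lower (TSC22D3, KLF9), against 15.4% and 17.7%. In HCC827 1 was higher (ZFP36) and 2 lower (TSC22D3, FKBP5), against 10.7% and 17.2%. With a limit of 1.5-fold, 5 were lower in HCC827, against 28.0% of all genes considered, since SGK1, KLF9 and CRISPLD2 lay between the limits. The contrast was used to choose the members, so nothing is read from these counts. The 8 had a median log2 fold of -0.89 (A549), -0.78 (HCC827) and 0.22 (H1975), beside 0.00, -0.04 and 0.07 for all genes considered.

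**Figure D1:**
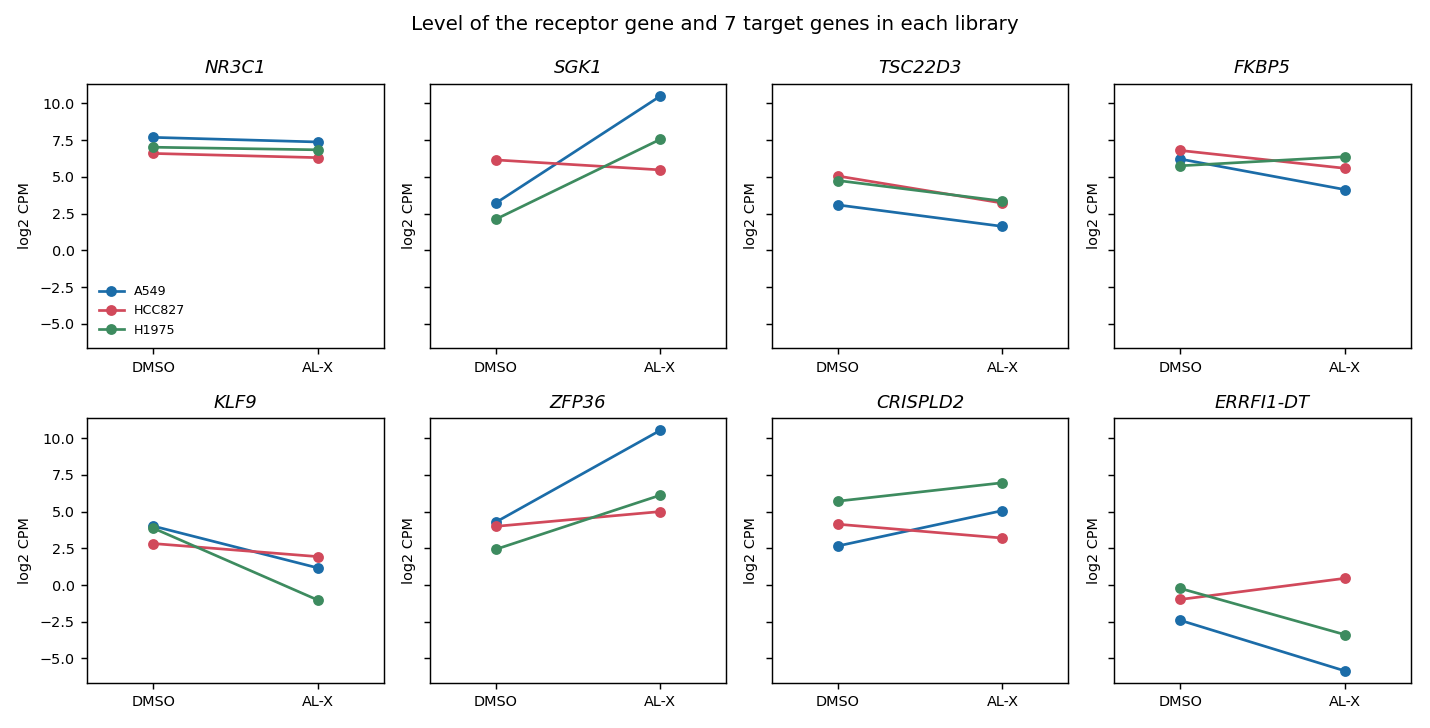
Level of each of the 8 genes, as log2 CPM with a prior count of 2 on a shared vertical axis, in the DMSO and AL-X library of each line (1 point per library). SGK1 and ZFP36 climb steeply in A549 and H1975, TSC22D3 and KLF9 are lower with AL-X in every line, and NR3C1 is nearly level.

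The receptor gene itself differed little under TMM scaling. NR3C1 (ENSG00000113580, GENCODE release 29 on GRCh38, chromosome 5, 143277931 to 143435512, minus strand) had 206 CPM with DMSO and 166 with AL-X in A549, 96.5 and 79.2 in HCC827, and 129 and 115 in H1975. AL-X libraries were the lower in every line, and the order of the lines, A549 over H1975 over HCC827, was the same under both treatments. The log2 fold was -0.31 in A549 (exact binomial 95% interval -0.35 to -0.28), -0.29 in HCC827 (-0.32 to -0.25) and -0.18 in H1975 (-0.21 to -0.14). Intervals of this kind hold counting error alone, because each line gave 1 library per treatment. They are too narrow even for that where reads are copies of 1 molecule. In A549 the size rests on the scaling: with library totals it was -1.32, at counts of 25116 and 11172. Each of these folds lay between the 39th and 45th percentile of its line, at 44.2 in A549, 39.1 in HCC827 and 40.9 in H1975.

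TSC22D3 was the member lower by at least 2-fold in all 3 lines. It encodes GILZ, a leucine zipper protein that carries part of the anti-inflammatory action of the receptor. TSC22D3 (ENSG00000157514, chromosome X, 107713221 to 107777342, minus strand) had 8.49 CPM with DMSO and 3.07 with AL-X in A549, 33.2 and 9.26 in HCC827, and 26.9 and 10.2 in H1975. The log2 folds were -1.46 (interval -1.69 to -1.25), -1.84 (-1.94 to -1.75) and -1.40 (-1.50 to -1.30). Of the 10210 genes considered in every line, 353, or 3.46%, were 2-fold lower in all 3. Its exons overlap those of NCBP2L on the other strand, a gene with at most 8 counts in any library.

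FKBP5 encodes a co-chaperone that lowers the hormone affinity of the receptor and is itself induced by it, a feedback loop. FKBP5 (ENSG00000096060, chromosome 6, 35573585 to 35728583, minus strand) went from 74.1 to 17.5 CPM in A549 and from 111 to 48.0 in HCC827, but from 53.8 to 82.6 in H1975. A549 and HCC827 were thus lower and H1975 higher, with log2 folds of -2.08 (interval -2.17 to -1.99), -1.21 (-1.26 to -1.17) and 0.62 (0.57 to 0.66). H1975 had the lowest DMSO level of the 3 lines and the highest AL-X level. With library totals its fold in H1975 was 0.21.

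KLF9 encodes a zinc finger repressor that is induced by the receptor. KLF9 (ENSG00000119138, chromosome 9, 70384597 to 70414624, minus strand) went from 16.1 to 2.23 CPM in A549, from 7.07 to 3.81 in HCC827 and from 14.6 to 0.474 in H1975. All AL-X libraries lay under all DMSO libraries. The log2 fold was -4.90 in H1975 (interval -5.39 to -4.53), the 37th lowest of 11784 genes considered there, -2.85 in A549 (-3.11 to -2.62) and -0.89 in HCC827 (-1.05 to -0.74).

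SGK1 had the largest difference of the set. It encodes serum and glucocorticoid regulated kinase 1, which keeps the epithelial sodium channel at the cell surface and phosphorylates NDRG1 and FOXO3. SGK1 (ENSG00000118515, chromosome 6, 134169246 to 134318112, minus strand) went from 1117 to 96870 counts in A549, or 9.17 to 1438 CPM, and from 537 to 18954 counts in H1975, or 4.28 to 187 CPM. In HCC827 it went from 10484 to 5545 counts, or 71.1 to 44.4 CPM. The HCC827 library with DMSO thus held more SGK1 than the other DMSO libraries, and the HCC827 library with AL-X held less than the other AL-X libraries. The log2 fold was 7.29 in A549 (interval 7.21 to 7.38), 5.45 in H1975 (5.33 to 5.58) and -0.68 in HCC827 (-0.73 to -0.63). It ranked 45th from the highest of 11825 genes considered in A549, 19th of 11784 in H1975 and 8880th of 11898 in HCC827. In all, 491 of 10210 genes, 4.81%, were 2-fold higher in A549 and in H1975 and below 0 in HCC827.

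The ratio of 2 genes within a library does not depend on scaling. The ratio of SGK1 to NR3C1 counts was 0.0445 with DMSO and 8.67 with AL-X in A549, 0.0331 and 1.64 in H1975, and 0.737 and 0.561 in HCC827. That of SGK1 to TSC22D3 was 1.08 and 468 in A549, 0.159 and 18.4 in H1975, and 2.14 and 4.80 in HCC827. SGK1 therefore gained on TSC22D3 in every line, including HCC827, where both were lower with AL-X.

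ZFP36 was the member higher by 2-fold in all 3 lines, and in HCC827 it was close to that limit. It encodes tristetraprolin, which binds AU-rich elements and speeds the decay of cytokine mRNAs. ZFP36 (ENSG00000128016, chromosome 19, 39406813 to 39409412, plus strand) went from 19.4 to 1476 CPM in A549, from 5.36 to 69.2 in H1975 and from 15.9 to 32.0 in HCC827. Every AL-X library lay above every DMSO library. The log2 fold was 6.25 in A549 (interval 6.19 to 6.31), 3.69 in H1975 (3.58 to 3.81) and 1.01 in HCC827 (0.93 to 1.08). In A549 with AL-X the counts of ZFP36 and SGK1, 99423 and 96870, were nearly equal. Per kilobase of merged exons their levels were not, at 734 CPM for ZFP36 and 144 for SGK1.

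CRISPLD2 encodes a secreted protein of the CAP family, induced by glucocorticoid in airway cells. CRISPLD2 (ENSG00000103196, chromosome 16, 84819984 to 84920768, plus strand) went from 6.30 to 33.5 CPM in A549, from 52.3 to 125 in H1975 and from 17.6 to 9.17 in HCC827. It was higher in the lines where SGK1 was higher, and lower in HCC827, at smaller sizes: log2 folds were 2.41 (interval 2.29 to 2.53), 1.25 (1.21 to 1.30) and -0.94 (-1.04 to -0.84). With library totals the fold in H1975 was 0.84, under the 2-fold limit. Annotated antisense genes overlap its exons, with at most 6 counts in a library.

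ERRFI1-DT is a long non-coding RNA that starts next to ERRFI1 and runs the other way. ERRFI1-DT (ENSG00000238290, chromosome 1, 8026738 to 8122702, plus strand) had 21 counts with DMSO and 0 with AL-X in A549, 72 and 169 in HCC827, and 105 and 8 in H1975. In A549 it was at least 3.87-fold lower, taking 3 counts as the most that 0 allows. The log2 fold was 1.44 in HCC827 (interval 1.07 to 1.89) and -3.15 in H1975 (-4.65 to -2.37). At no more than 1.35 CPM it was too low to be counted among the differing genes. Its neighbour ERRFI1, whose protein MIG6 inhibits EGFR, went from 10100 to 66523 counts in A549, from 27083 to 28847 in HCC827 and from 31175 to 64451 in H1975, with log2 folds of 3.57, 0.33 and 1.36. The ratio of ERRFI1 to ERRFI1-DT counts was 297 with DMSO and 8056 with AL-X in H1975, and 376 and 171 in HCC827. The transcripts of this pair differed in opposite directions in A549 and H1975.

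**Figure D2:**
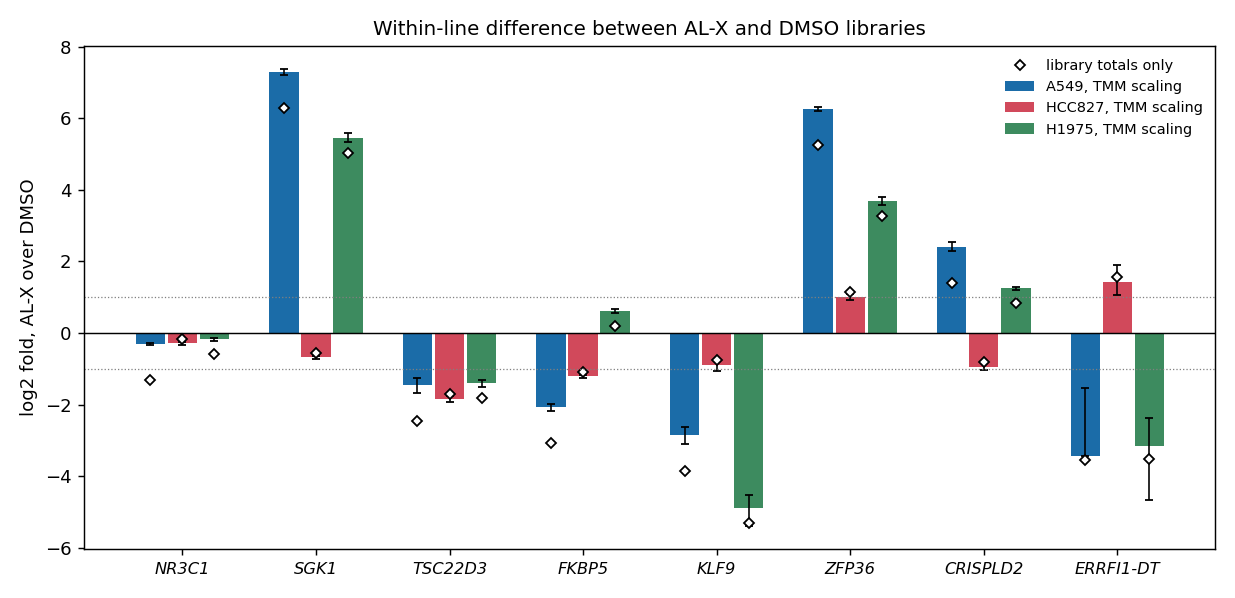
Log2 fold of AL-X over DMSO for each gene and line after TMM scaling (bars), with exact binomial 95% intervals for counting error (whiskers) and the fold with library totals only (diamonds). Dotted lines stand at 2-fold; the A549 bar of ERRFI1-DT, with 0 counts in the AL-X library, depends on the prior count and has no lower whisker end.

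With DMSO, the lines stood furthest apart in SGK1 of the 8 genes. Per kilobase of merged exons, SGK1 with DMSO was at 7.12 CPM in HCC827, 0.917 in A549 and 0.429 in H1975, so that HCC827 stood 16.6-fold above H1975. CRISPLD2 differed 8.30-fold, from 6.57 CPM per kilobase in H1975 to 0.791 in A549, and TSC22D3 3.92-fold, from 6.97 in HCC827 to 1.78 in A549. ZFP36 was at 9.63 in A549, 7.92 in HCC827 and 2.67 in H1975. NR3C1, at 22.5 in A549, 14.1 in H1975 and 10.5 in HCC827, was the highest of the 8 genes per length in A549 and H1975, and in HCC827 nearly equal to FKBP5. It lay above 82.0% to 92.5% of protein-coding genes. FKBP5 was at 10.5 in HCC827, beside 6.98 in A549 and 5.06 in H1975, while KLF9 was lowest in HCC827, at 1.37 beside 3.12 and 2.83. With 1 library per line and treatment, no spread is at hand to say which neighbours in these orders differ.

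Few genes followed SGK1 in size. The 6 whose 3 folds lay nearest to those of SGK1, by Euclidean distance among 11539 genes with a symbol and a mean of at least 5 CPM, were SNORD104 (distance 1.53), RGS2 (1.82), HSPA1B (2.04), HSPA1A (2.19), GADD45B (2.56) and ZFP36 (2.65). RGS2, an inhibitor of G protein signalling, had the log2 folds 6.28 in A549, -0.48 in HCC827 and 6.94 in H1975. It was, with SNORD104 (6.82, -0.73 and 3.99), the one of the 6 that was also below 0 in HCC827. SNORD104 is a small nucleolar RNA gene, and HSPA1A and HSPA1B can share reads. By Pearson correlation of log2 CPM over the 6 libraries, which ignores size, the nearest were PLRG1 (r = 0.996), RPL37 (0.996), RPS4X (0.994), RWDD4 (0.994), RBMX2 (0.994) and RPS18 (0.990). Their folds in A549 were between 0.89 and 2.18. The ribosomal protein genes among them, RPL37, RPS4X and RPS18, have many copies that can share reads. The 6 points come from 3 pairs of libraries, and 84 genes had the same rank order as SGK1.

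**Figure D3:**
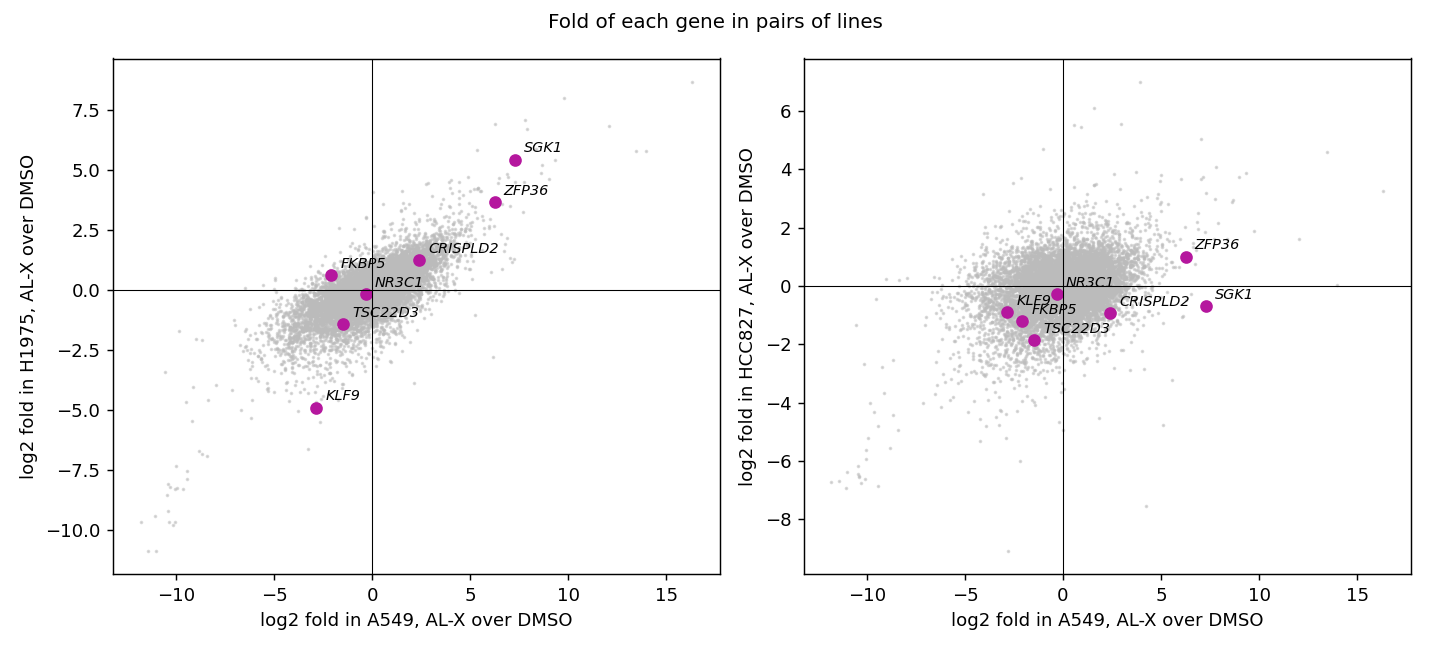
Log2 fold of AL-X over DMSO in A549 against that in H1975 (left) and HCC827 (right), 1 point per gene for the 10210 genes considered in every line, with 7 members in purple. SGK1 and ZFP36 lie at the upper right end on the left and on either side of 0 in HCC827 on the right.

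Genes of the pathway other than the 8 were tested across the lines, with the 3 lines as replicates. The lists, like the members, were chosen with earlier results of these data known, so their counts and medians are a description. Of 20344 genes tested, 0.256% were called at a Benjamini-Hochberg adjusted p under 0.05 by edgeR's quasi-likelihood test, 20 higher (0.0983%) and 32 lower (0.157%). In 6 lists of 156 entries and 154 different genes, 142 were tested. 2 were higher, DUSP1 and ATF3, and 1 was lower. Without HCC827 the lists held 13 higher and 3 lower, among 127 higher and 57 lower of 20734 genes tested. Without A549 they held 3 and 5, among 65 and 78 of 21133. Each of these fits rests on 2 lines, and HCC827 is the line where SGK1 was not higher when the set was chosen. A p-value here reflects the scatter between 3 different lines, and no line has a repeat library of either treatment. Over all genes, 3199 of 20344 had an unadjusted p under 0.05 in edgeR, against 27 higher and 18 lower of the 142 list genes. The total over all genes was not split by direction. The unadjusted counts of higher and lower list genes therefore have no share of all genes for their direction. DESeq2 called 601 higher and 1385 lower of all genes, and limma-voom 292 and 326. The counts of each list below belong beside these totals, and nothing is read from them alone.

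The counts of 2-fold differences within a line are read beside the shares over all genes considered. With TMM these were 30.0% higher and 31.4% lower in A549, 15.4% and 17.7% in H1975, and 10.7% and 17.2% in HCC827. With library totals the shares were 12.6% and 51.9% in A549, 6.91% and 28.2% in H1975, and 13.8% and 15.1% in HCC827. In every list the 5 CPM limit is applied to the higher library, so a differing gene can enter through AL-X or through DMSO alone.

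Of the receptor's own machinery, 0 of 28 tested chaperone and coregulator genes passed in edgeR, with 4 higher and 2 lower at unadjusted p under 0.05. DESeq2 called 4 and 2, and limma-voom 3 and 1. The list's median across-line log2 fold was 0.69, beside -0.27 for all genes tested. Of 27 considered in each line, 16 were 2-fold higher and 5 lower in A549 (30.0% and 31.4% of all genes), 13 and 3 in H1975 (15.4% and 17.7%), and 2 and 3 in HCC827 (10.7% and 17.2%). With library totals these were 12 and 8 in A549 (12.6% and 51.9% of all genes) and 9 and 5 in H1975 (6.91% and 28.2%). In HCC827 they were 2 and 2 (13.8% and 15.1%). HSP90AA1, which holds the receptor ready for hormone, had the log2 folds 2.50 in A549, 1.97 in H1975 and -0.33 in HCC827 (across-line 1.42, SE 0.99, edgeR adjusted p = 0.491). FKBP4, the co-chaperone that FKBP5 competes with, had 2.62, 1.29 and -0.08 (1.28, SE 0.68, adjusted p = 0.377), so its sign was opposite to that of FKBP5 in A549. The heat shock proteins HSPA1A (4.11, SE 1.34), DNAJB1 (3.62, SE 1.11) and HSPA8 (2.37, SE 1.37) were at the top of the list. The corepressor NRIP1 (-2.71, SE 0.61, adjusted p = 0.103), the coactivator NCOA2 (-1.82, SE 0.56) and the Mediator subunit MED1 (-1.20, SE 0.58) were at the bottom, and NRIP1 was lower in all 3 lines.

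Of 42 other genes known to be induced by the receptor, 38 were tested and 1 rose. DUSP1, a phosphatase that switches off stress-activated MAP kinases, went from 33.6 to 521 CPM in A549, from 7.85 to 61.4 in HCC827 and from 14.2 to 158 in H1975. Its AL-X libraries all lay above its DMSO libraries. Its across-line log2 fold was 3.47 (SE 0.54, edgeR adjusted p = 0.0253), made of 3.95, 2.97 and 3.47 by line. The call was lost without H1975 (adjusted p = 0.123) and with library totals (adjusted p = 0.0950). With no adjustment, p was under 0.05 for 11 higher and 4 lower, DESeq2 called 6 and 4 and limma-voom 3 and 3. The median was 0.99. Within A549 22 of 35 considered were 2-fold higher and 6 lower (30.0% and 31.4% of all genes), within H1975 14 and 7 of 33 (15.4% and 17.7%), and within HCC827 8 and 9 of 33 (10.7% and 17.2%). Of the higher genes, RASD1, CDKN1C and LCN2 reached 5 CPM in A549 through AL-X alone, RASD1 and RGS2 in H1975, and RASD1 and ANGPTL4 in HCC827. Of the lower genes, BIRC3, FOXO1 and MAOA reached it in A549 through DMSO alone, BIRC3 and PDK4 in H1975, and PDK4 in HCC827. With library totals the counts were 10 and 10 of 33 in A549 (12.6% and 51.9% of all genes) and 9 and 10 of 33 in H1975 (6.91% and 28.2%).

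The largest across-line values in this list were those of RASD1, a small GTPase first described as dexamethasone-induced (6.85, SE 2.13, adjusted p = 0.205), GADD45B, a stress sensor (5.52, SE 1.47, adjusted p = 0.144), and RGS2 (5.08, SE 1.76, adjusted p = 0.237). None passed, and HCC827 was the line with the smallest value in each. PER1, a clock gene directly induced by the receptor, had the log2 folds 1.96 in A549, 0.62 in HCC827 and 0.93 in H1975 (1.17, SE 0.54, adjusted p = 0.324). The lipase inhibitor ANGPTL4 went from 389 to 22570 counts in HCC827, a log2 fold of 6.09, beside 1.59 in A549 and 0.23 in H1975. The transcription factor CEBPD (1.72, -1.97 and 0.70 in A549, HCC827 and H1975) and the metallothionein MT2A (3.62, -1.67 and 1.04) were, like SGK1, below 0 in HCC827 alone. At the other end, among genes at a mean of 5 CPM or more, stood PDK4, which restrains pyruvate oxidation (-3.33, SE 0.64, adjusted p = 0.0643), the apoptosis inhibitor BIRC3 (-3.24, SE 0.74, adjusted p = 0.109) and TXNIP (-2.30, SE 0.65, adjusted p = 0.154). PDK4 went from 177 to 28.3 CPM in A549, from 7.95 to 1.42 in HCC827 and from 18.4 to 0.563 in H1975, lower in all 3 lines as TSC22D3 and KLF9 were.

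Of 22 inflammatory genes that the receptor restrains, 20 were tested and 0 passed in edgeR, with 2 higher and 5 lower at unadjusted p under 0.05. DESeq2 called 2 and 4 and limma-voom 2 and 3. The median was -0.69. In HCC827 8 of 13 considered were 2-fold lower and 2 higher (17.2% and 10.7% of all genes), with a median of -4.17. In A549 3 of 9 were lower and 4 higher (31.4% and 30.0%), with a median of 0.23, and -0.77 with library totals. H1975 had 3 and 3 of 9 (17.7% and 15.4%, median -0.06). The 5 CPM limit applies to the higher library, so the 8 lower genes of HCC827 entered through DMSO alone. The medians are thus over different genes in each line. With library totals A549 had 4 lower and 2 higher of 10 considered (51.9% and 12.6% of all genes) and H1975 5 and 2 of 11 (28.2% and 6.91%). CXCL8, a neutrophil chemokine, went from 55.5 to 2.42 CPM in HCC827, from 21.7 to 18.3 in H1975 and from 6.79 to 24.1 in A549. CXCL2 (-4.92, SE 0.96, adjusted p = 0.0650), CXCL1 (-4.63, SE 1.18) and CXCL5 (-1.87, SE 0.99) had the lowest across-line values among genes at a mean of 5 CPM or more. IL11 (2.64, SE 0.53, adjusted p = 0.0715), IER3 (2.30, SE 0.73) and ICAM1 (0.03, SE 0.50) had the highest under the same limit. The NF-kB inhibitor NFKBIA, which the receptor induces, had the log2 folds 0.50 in A549, -2.59 in HCC827 and -1.54 in H1975 (adjusted p = 0.362).

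Of the genes around SGK1, 20 were considered in each line. Within A549 2 were 2-fold higher and 6 lower (30.0% and 31.4% of all genes), within H1975 0 and 4 (15.4% and 17.7%), and within HCC827 3 and 1 (10.7% and 17.2%). With library totals A549 had 0 and 15 (12.6% and 51.9% of all genes) and H1975 0 and 6 (6.91% and 28.2%). Of 24 regulators and effectors 22 were tested and 0 passed in edgeR, with 0 higher and 2 lower at unadjusted p under 0.05. DESeq2 and limma-voom called 0 higher and 1 lower. The median was -0.15. SCNN1A, the alpha subunit of the epithelial sodium channel and itself a receptor target, went from 60.7 to 5.46 CPM in A549, from 216 to 44.8 in HCC827 and from 31.4 to 7.21 in H1975. It was lower in 3 of 3 lines, with an across-line log2 fold of -2.61 (SE 0.51, edgeR adjusted p = 0.0650), and was the gene that both other tools called. NEDD4L, the ubiquitin ligase that SGK1 inhibits, had -0.39, 0.47 and 0.42 in A549, HCC827 and H1975, and NDRG1 0.55, 2.00 and -1.82. RICTOR, a subunit of the kinase complex that activates SGK1, had -1.04, 0.44 and -2.57, and WNK4, a kinase upstream of ion transport, -2.74, -0.73 and -1.82. The amino acid transporter SLC1A5 (1.13, SE 0.57), the glucose transporter SLC2A1 (0.82, SE 0.64) and the adaptor YWHAZ (0.45, SE 0.70) had the highest across-line values.

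Close relatives of the members had values of their own. SGK2 went from 2948 to 294 counts in A549, from 388 to 716 in HCC827 and from 40 to 0 in H1975, where it was at least 10.8-fold lower. SGK3 had log2 folds of -1.40, 0.50 and -0.76. In each line the sign of both SGK2 and SGK3 was opposite to that of SGK1. Of the TSC22 family, TSC22D1 had -1.87 in A549, -0.74 in HCC827 and -1.91 in H1975, like TSC22D3, while TSC22D2 had 4.49, 0.60 and 1.41 and TSC22D4 1.75, 1.81 and 0.81. ZFP36L1 had -0.64, -0.64 and 0.27 and ZFP36L2 2.96, -0.20 and 0.17, so neither was higher in HCC827 as ZFP36 was. KLF13 had -1.44, -0.38 and -1.28 and KLF16 2.82, 0.26 and 1.60, and KLF14 had 12 and 3 counts in HCC827 and 0 elsewhere. Of the FKBP genes, FKBP1A had 1.33, 0.10 and 1.02, FKBP10 0.21, -1.19 and 0.81, FKBP11 -0.29, -0.22 and 0.28 and FKBP14 -1.26, 0.84 and -0.39. CRISPLD1 went from 782 to 78 counts in HCC827, had 31 and 0 in A549 and was at 0 in H1975. Within A549 7 of 16 considered relatives and neighbours were 2-fold higher and 6 lower (30.0% and 31.4% of all genes). H1975 had 5 and 2 of 14 (15.4% and 17.7%), and HCC827 2 and 2 of 16 (10.7% and 17.2%). With library totals A549 had 5 and 8 (12.6% and 51.9% of all genes) and H1975 2 and 3 (6.91% and 28.2%). None of those named here passed across the lines in edgeR, and over the 18 genes of the list that were tested, 4 were higher and 5 lower at unadjusted p under 0.05.

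Of the steroid receptors related to NR3C1, NR3C2 and PGR were low. The mineralocorticoid receptor gene NR3C2 had 60, 49 and 24 counts with DMSO in A549, HCC827 and H1975 and 0, 0 and 6 with AL-X, and the progesterone receptor gene PGR had 0 counts in every library.

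The serum-induced immediate-early genes, which share inducers with SGK1 and ZFP36, had the highest median of the 6 lists. Of 18 tested 1 rose, ATF3, a stress-induced transcription factor, from 142 to 12280 counts in A549, from 2829 to 21754 in HCC827 and from 672 to 12428 in H1975 (4.91, SE 0.81, edgeR adjusted p = 0.0327). Its call was lost with library totals (adjusted p = 0.117). With no adjustment, p was under 0.05 for 7 higher and 0 lower, DESeq2 called 7 and limma-voom 3, all higher. The list's median across-line fold was 2.07. Within A549 17 of 17 considered were 2-fold higher (30.0% of all genes). In H1975 10 of 14 were higher and 2 lower (15.4% and 17.7%), and in HCC827 5 of 13 and 0 (10.7% and 17.2%). The 5 CPM limit applies to the higher library, so FOSB, ARC, EGR1, EGR2 and ATF3 entered in A549 through AL-X alone. FOS, FOSB and ARC did so in H1975, and FOS and FOSB in HCC827. EGR3, with 13 counts with DMSO and 4 with AL-X in A549, was under the limit. With library totals 14 of 17 were higher in A549 (12.6% of all genes), 8 of 14 in H1975 (6.91%) and 7 of 14 in HCC827 (13.8%). The lower ones were then 0, 2 and 0 (51.9%, 28.2% and 15.1% of all genes). The within-line medians with TMM were 5.14 in A549, 2.19 in H1975 and 0.95 in HCC827. FOSB (8.84, SE 2.67), FOS (7.26, SE 1.77) and ARC (6.69, SE 2.97) had the highest values, and NR4A2 (0.26, SE 0.78), NR4A1 (0.55, SE 0.68) and BTG2 (0.97, SE 0.68) the lowest at 5 CPM or more.

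**Figure D4:**
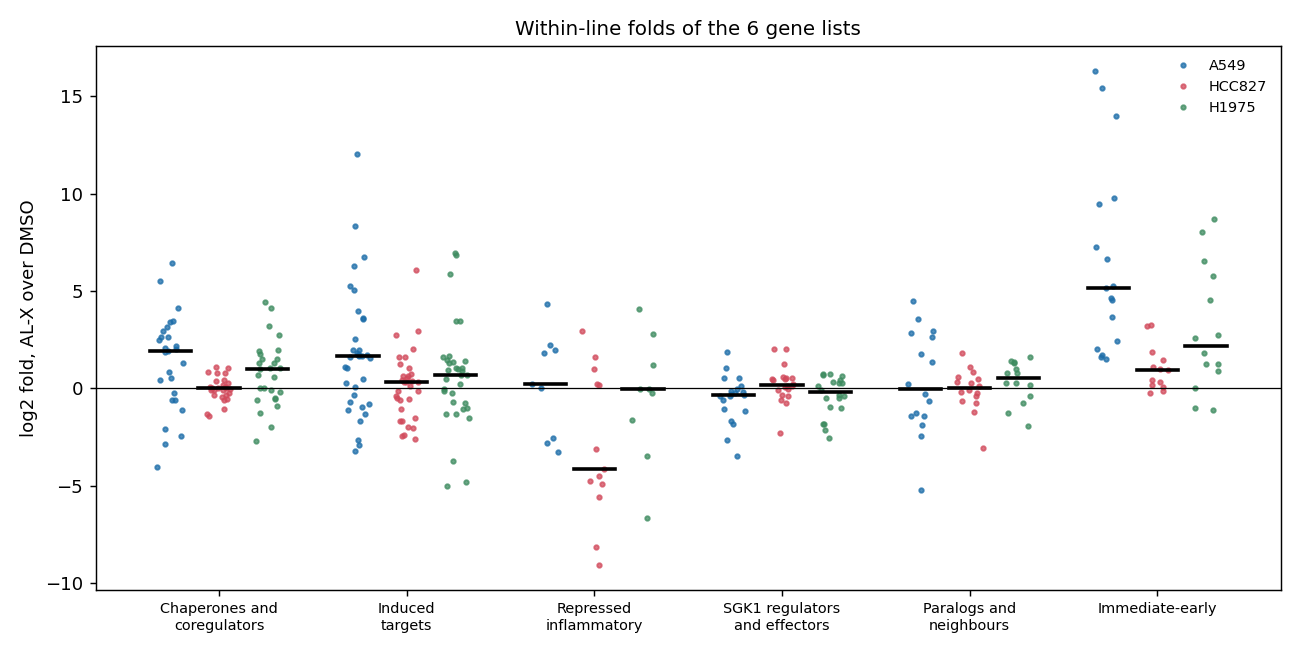
Log2 fold of AL-X over DMSO within each line for the genes of the 6 lists that reached 5 CPM in the higher library of the line (points, 1 per gene), with the list's median (black bars). The immediate-early medians stand at 5.14 in A549, 0.95 in HCC827 and 2.19 in H1975, and the inflammatory list is lowest in HCC827, at -4.17. The genes shown differ between lines, since the limit is applied within each line.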

How the data were processed

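mRNA libraries of A549, HCC827 and H1975 with AL-X or DMSO were analysed, 1 library per line and treatment. The authors deposited raw read counts per Ensembl gene for all 6 libraries in a single table. The submitters' processing notes name bcl2fastq 2.20 and GRCh38. Per the labels' protocols, RNA was isolated with Trizol and an mRNA kit was used. What aligned and counted the reads, with which gene models, strand setting or barcodes, is not given in the sources used here, so reads of overlapping or antisense genes cannot be told apart. Positions and exonic lengths are from GENCODE release 29, which held 58453 of the 60671 gene IDs; 42020 had a symbol.

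The across-line test was edgeR 4.0.16 (R 4.3.3): TMM, filterByExpr, cell line as a block, robust quasi-likelihood fit, Benjamini-Hochberg adjustment over 20344 genes, 2 residual degrees of freedom. Pairing comes from the cell line tag. Nothing says that a library holds more than 1 culture. SE is the fold divided by the root of F. Within lines no test was made: folds are of TMM-scaled CPM with a prior count of 2, with exact binomial 95% intervals. A gene at 0 counts was set against a floor of 3. Alternatives were DESeq2 1.42.0 and its size factors, limma-voom 3.58.1, library totals, other filters, no block, each line left out, mitochondrial genes left out, a prior count of 0.5 and a limit of 1.5-fold. The scripts were tested on simulated data.

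The members and lists were chosen with earlier results of these data known. Named were the members, their paralogs, the 3 highest and 3 lowest genes of each other list at a mean of 5 CPM or more, list genes past the test (1 is not reported here), genes nearest to SGK1, and PER1, DUSP1, CEBPD, ANGPTL4, NFKBIA, MT2A, SCNN1A, NEDD4L, NDRG1, HSP90AA1 and CXCL8. FKBP4 and ERRFI1 stand in 2 lists. NKX2-1, CD68, PTPRC and the further genes named for the 5 CPM limit were named after their values were seen.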

Additional observations from a re-analysis of the deposited data

Results flagged for a closer look

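4 of the 8 genes stood out because their counts differed in opposite directions between lines beyond counting error. Whether the lines differ was not tested, since each gave 1 library per treatment and the genes were chosen on this contrast. SGK1 had log2 folds of 7.29 in A549 and 5.45 in H1975 but -0.68 in HCC827. CRISPLD2 had 2.41 and 1.25 in those lines and -0.94 in HCC827. ERRFI1-DT had the reverse order, -3.44 in A549 (0 counts with AL-X, so the value depends on the prior count), -3.15 in H1975 and 1.44 in HCC827. FKBP5 set H1975 apart instead, at 0.62 against -2.08 in A549 and -1.21 in HCC827.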

How the results depend on the processing

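SGK1 kept its direction in each line under every scaling and prior count tried. Library totals gave it 6.29 for A549, -0.55 for HCC827 and 5.04 for H1975 on the log2 scale. The counts of members 2-fold higher or lower moved by over 1.5 times in 1 case, the lower members in HCC827, 5 at 1.5-fold instead of 2. The across-line counts, 20 higher and 32 lower over all genes and 2 and 1 over the lists, were less stable. They were 0 in each case with library totals, with no filter and with no replicate block; at unadjusted p under 0.05 these gave 2792, 3352 and 1722 genes, against 3199 in the design used. DESeq2 called 601 higher and 1385 lower, 20 and 14 of them in the lists, and limma-voom 292 and 326, with 11 and 9 in the lists. A filter of 1 CPM in 3 libraries left 0 list genes lower. Leaving out 1 line gave 28 to 127 higher and 57 to 78 lower, and 1 to 13 and 3 to 5 in the lists. Of the called list genes ATF3 passed without each line in turn, DUSP1 did not without H1975. Of the other member folds and list medians, 34 of 39 moved with library totals; the members kept their signs, and the A549 median of the inflammatory genes went from 0.23 to -0.77.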
